A study of Rattus norvegicus with 36 samples.

Results

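Interferon-stimulated genes are the genes that a cell turns on when an interferon, or a sensor of foreign RNA or DNA, signals to it. Receptors for the type I interferons act through the kinases JAK1 and TYK2, which activate STAT proteins. STAT2 and IRF9 are part of a complex that binds the interferon-stimulated response element, a short motif in the promoters of its target genes. The products bind viral RNA, block translation, hold back virus particles, attach the ubiquitin-like protein ISG15 to other proteins, or sense further RNA and DNA.

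A list of 44 such genes was looked up by symbol in the gene tables of H9C2 cells, and 39 of them were found among 24275 genes. *Oas1b*, *Cxcl11*, *Xaf1*, *Cmpk2* and *Samd9* were not found and are not analysed here. The list follows the known function of the genes and takes no measured value as its rule. It was chosen with earlier results of these data known.

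H9C2 is a myoblast line from rat heart, and each culture had received 25 nmol/L of a single mimic. The mimics were a mimic control (MC), miR-125b, and 4 isomiRs that differ from miR-125b at the 3′ end, named Trim AGU, Trim AG, Trim A and Plus A. Transfection lasted 24 h and was followed by 24 h of hypoxia or normoxia. The hypoxic cells were kept at less than 0.2% O2 in low-glucose medium without serum, and the normoxic cells in fresh medium, so oxygen and medium cannot be told apart. Poly-A RNA was sequenced without strand information in 3 libraries per group, and the 33 libraries of 11 groups are described here. Normoxic cells with MC were not analysed here, so MC is compared with the other mimics in hypoxia only. All groups carry a mimic, all are of a single cell line, and no group is labelled as having received interferon. Nothing in the labels says whether the libraries of a group came from separate cultures, so p-values measure only the spread between libraries, which may be technical. In bulk RNA, fewer cells that express a gene and less of its RNA per cell cannot be told apart.

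The forms of miR-125b are shown because they share their seed and, by the names of the mimics, differ at the 3′ end alone. They were derived from the RefSeq entry of rat miR-125b-5p (GRCr8, chr11:29732588-29732609, plus strand) and the change that each mimic's name states, read from the 3′ end inwards. The sequences of the mimics themselves were not used here. Capitals mark the seed, bases 2 to 8.
miR-125b: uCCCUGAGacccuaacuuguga
Plus A: uCCCUGAGacccuaacuugugaa
Trim A: uCCCUGAGacccuaacuugug
Trim AG: uCCCUGAGacccuaacuugu
Trim AGU: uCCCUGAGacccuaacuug

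The response element was searched on both strands of the RefSeq promoter windows (GRCr8), which run from 250 bases before to 50 bases after each gene start. It was taken as GAAA followed, after any 2 bases, by another GAAA. Windows were found for 28 of the 39 genes, and 17 of these, or 60.7%, held the motif, against 3.92% of all 33469 windows. The match describes the letters and does not show that a factor bound there. The stretches below are from genes that the results turn on, with the match in capitals. *Isg20*, *Ifih1*, *Parp14* and *Ifitm3* code for an RNA exonuclease, an RNA sensor, an ADP-ribosyltransferase and a membrane protein that hinders virus entry.
Isg20, chr1:142239947-142239996, plus strand: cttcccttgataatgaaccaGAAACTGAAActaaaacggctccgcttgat
Ifih1, chr3:67683998-67684047, minus strand: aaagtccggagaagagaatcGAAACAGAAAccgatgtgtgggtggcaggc
Parp14, chr11:78408038-78408087, plus strand: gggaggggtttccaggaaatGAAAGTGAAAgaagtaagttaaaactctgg
Ifitm3, chr1:205541773-205541822, minus strand: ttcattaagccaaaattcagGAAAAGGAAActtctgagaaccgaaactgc
The motif was present both in genes that were lower than MC, such as *Ifih1*, *Parp14* and *Ifitm3*, and in *Isg20*, which was higher. The windows of *Parp9* and *Stat2*, both called lower than MC with all 5 other mimics, did not hold it.

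Total counts per library ranged from 28361216 to 42672584. The 3 libraries of Hypoxia Trim AG were the deepest, at 41306881, 39940087 and 42672584, and no other exceeded 34505938. More counts make a call easier, and the part of depth in the Trim AG calls was not tested. Levels are given as CPM, the count per 1000000 counts of the library. The 8 myoblast markers summed to between 2969 and 4896 CPM, although *Myf5* was at 0 in 8 of 11 groups. *Vim* made up most of that sum, at 2468 to 4624 CPM, while *Des* did not exceed 4.984 CPM and *Cdh2* 0.3775 CPM. The 6 immune cell markers summed to between 2.03 and 4.30 CPM, and *Ptprc*, which marks white blood cells, was at 0 in all 3 libraries with MC in hypoxia. The endothelial and epithelial markers found did not exceed 0.331 and 0.261 CPM in any library. *Cav1* was at 269, 98 and 98.3 CPM in the libraries labelled Normoxia Plus A and at 102, 282 and 263 CPM in those labelled Normoxia miR-125b, so the first library of each stood with the other group. The second library of Hypoxia Trim AGU had genes under 1000 bases higher by a median of 0.24 and genes over 4000 bases lower, at -0.60, on the log2 scale than the others of its group. These are called the libraries in doubt, and the counts below and the values of most genes described are also given without the second library of Hypoxia Trim AGU, or without the first libraries of Normoxia Plus A and Normoxia miR-125b, where they enter.

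Levels of the 39 genes spanned a wide range. By FPKM, which scales a count to gene length and depth, *Ifi27* had a mean level of 230.5 over the 33 libraries and *Ifitm2* of 206. *Ifitm3* followed at 47.1 FPKM, *Isg20* at 31.2 and *Gbp2* at 19.9. *Ifitm2* is a relative of *Ifitm3*, and *Gbp2* codes for a GTPase that acts on intracellular pathogens. Genes often used to report an interferon response were lower, *Isg15* with a mean of 2.22 FPKM, *Ifit1* of 0.636, *Usp18* of 0.629 and *Mx2* of 0.472. *Mx1*, *Oas1a*, *Oas2*, *Rsad2*, *Bst2* and *Cxcl10* had group means of at most 0.335 CPM and no more than 18 counts in any library, and did not pass the count filter of any comparison. *Rsad2* had no count in 28 libraries and *Oas2* none in 31. The other 33 genes were tested in at least 1 of 22 comparisons, and 29 of them in all 22. Among pairs of groups, *Ifit3*, *Ifitm1* and *Oasl* passed only against MC, where their level was highest, so they had to be high there to be tested.

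In hypoxia, most of the genes called were lower with miR-125b and its isomiRs than with MC, and *Isg20* was higher. A gene was called when edgeR's quasi-likelihood test gave an adjusted p below 0.05 over all genes and the change was at least 1.5-fold. Shares of all genes are given for these edgeR fits with all libraries of the groups compared. Counts from other fits have no such share beside them, so a changed count is not a result about these genes alone. With miR-125b 10 of 33 tested genes were lower and 2 higher, where 12.5% of all tested genes were lower and 9.43% higher. With Plus A 12 were lower and 2 higher of 32, against 14.4% lower and 10.5% higher of all genes. With Trim A 13 were lower and 2 higher of 31, against 15.7% lower and 12.4% higher. Without *Ifit3*, *Ifitm1* and *Oasl*, which a high level with MC brought into the test, 8 of 30, 10 of 30 and 12 of 29 were lower.

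With Trim AG 21 of 31 tested genes were lower and 1 higher, against 20.2% lower and 17.0% higher of all genes. With Trim AGU 15 were lower and 1 higher of 32, against 12.4% lower and 11.4% higher. Without its second library 19 were lower and 1 higher, and the share of all genes in that fit is not given here. Without *Ifit3*, *Ifitm1* and *Oasl* the lower counts were 19 of 29 with Trim AG and 13 of 30 with Trim AGU. The Trim AGU count fell to between 4 and 7 calls when any 1 of the MC libraries was left out, or the third Trim AGU library. The median log2 fold change over the tested members was -0.40 with miR-125b, -0.51 with Plus A and -0.52 with Trim A. It was -1.27 with Trim AG and -0.74 with Trim AGU, while the median of all genes lay between -0.02 and 0.00. These comparisons share the MC libraries. Their medians include *Ifit3*, *Ifitm1* and *Oasl* where tested, which a high level with MC brought in, and medians without them were not computed.

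**Figure D1:**
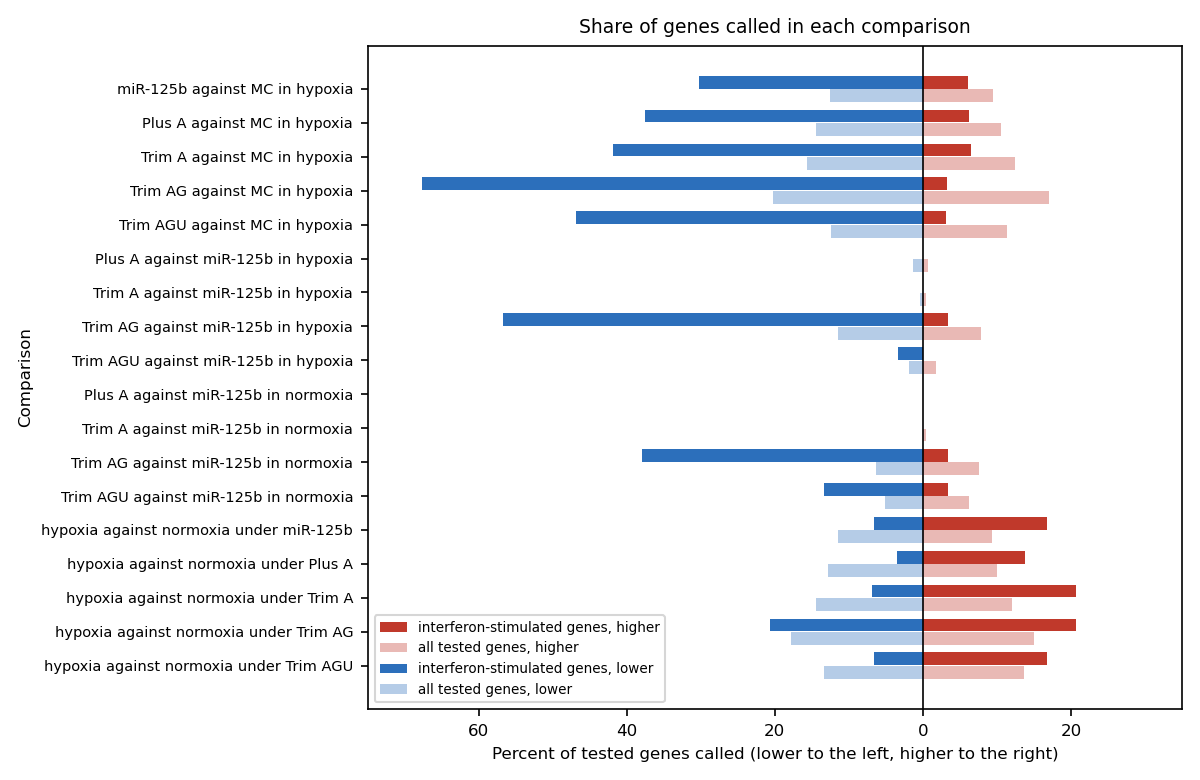
The bars give the percent of tested genes called higher (red, to the right) and lower (blue, to the left) in 18 comparisons, for the interferon-stimulated genes in full colour and all tested genes in pale. In the comparisons with MC, which include genes tested only there, and in Trim AG against miR-125b at both oxygen levels, the blue bars of the interferon-stimulated genes are longer than those of all genes.

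*Dtx3l*, *Ifih1*, *Ifitm1*, *Mx2*, *Parp14*, *Parp9* and *Stat2* were called lower than MC with all 5 other mimics, which makes 7 of the 22 genes called lower with any. *Ifitm1* among the 7, and also *Ifit3* among the 22, came into the test through a high level with MC, which favoured a lower call. Of the 29 genes tested with each mimic and not only against MC, 20 were lower with any and 6 with all 5, and of all genes 6.22% were lower with all 5 and 28.4% with any. Of 6 fits that each left out a library, 5 lost *Ifitm1* with Trim A and 5 with Trim AGU, 4 lost *Ifih1* with each of these, and 4 lost *Parp14* with Trim AGU. No such fit lost *Dtx3l*, *Mx2*, *Parp9* or *Stat2* with any mimic. *Isg20* was the 1 gene called higher with all 5, where 2.75% of all genes were, and its call with Trim AGU was lost in 3 of 6 such fits. *Rtp4* was called higher with miR-125b, Trim A and Plus A and lower with Trim AG, and 4 of 6 such fits lost the call with Trim A and 1 of 6 that with Trim AG. A call with some mimics and not with others does not show that the mimics differ.

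Most members given with library values here and below were chosen among calls without overlap between libraries. For the comparison that chose them, the lack of overlap describes the choice and adds no support. *Mx2* codes for a dynamin-like GTPase that restricts viruses. It was at 3.44, 2.79 and 3.33 CPM in the 3 hypoxic MC libraries, 0.997, 1.48 and 0.581 with miR-125b and 1.64, 1.31 and 1.52 with Plus A. It was at 0.74, 0.507 and 1.13 CPM with Trim A, 0.194, 0.0501 and 0.305 with Trim AG and 0.219, 0.188 and 0.0294 with Trim AGU. No library of another mimic reached the lowest MC library, and those of Trim AG and Trim AGU lay below all others in hypoxia. The log2 fold change against MC was -1.6 ± 0.28 (SE) with miR-125b, -4.02 ± 0.41 with Trim AG and -4.29 ± 0.52 with Trim AGU (edgeR's quasi-likelihood test, adjusted p = 0.000526, 5.68e-05 and 0.00258), and -4.58 with Trim AGU without its second library. The values with Trim AG and Trim AGU rest on 23 and 14 counts over their 3 libraries. *Mx2* (ENSRNOG00000001963) lies on chromosome 11 of the tables, from 38035450 to 38059950 on the plus strand, in a build not given in the sources used here, and it can share reads with the related *Mx1*.

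*Ifit1* and *Ifit3* code for proteins of a family that binds foreign RNA. *Ifit1* was at 2.41, 1.98 and 1.85 CPM with MC, 1.22, 1.04 and 0.869 with Trim A, 0.218, 0.626 and 0.328 with Trim AG and 0.125, 0.627 and 0.235 with Trim AGU. None of these 3 isomiR groups overlapped MC. The log2 fold changes were -0.95 ± 0.22, -2.34 ± 0.37 and -2.48 ± 0.57 (edgeR's quasi-likelihood test, adjusted p = 0.00785, 0.000619 and 0.0199). The value with Trim AGU was -3.41 without its second library, and the call was lost in 4 of 6 fits that left out a library. With miR-125b the value was -0.49 ± 0.23, which did not pass. *Ifit3* was rare, at 0.628, 0.369 and 0.343 CPM with MC and 0, 0.2 and 0 with Trim AG. Its call with Trim AG, at -2.65 ± 0.94, was lost in 5 of 6 fits that left out a library. Among pairs of groups *Ifit3* passed the filter only against MC, where it was highest, so the filter itself favoured a lower call. Genes of this family resemble each other, so reads may be split between them.

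ISG15 is activated for its attachment to proteins by UBA7 and taken off again by USP18. *Isg15* was at 5.82, 6.35 and 5.73 CPM with MC, 3.47, 2.71 and 3.39 with miR-125b and 1.52, 1.48 and 1.5 with Trim AG, and these groups did not overlap. Its log2 fold change against MC was -0.87 ± 0.15 with miR-125b and -1.93 ± 0.16 with Trim AG (edgeR's quasi-likelihood test, adjusted p = 0.000444 and 1.53e-05). *Isg15* was also called lower with Trim A and Trim AGU, and not with Plus A. The Trim AGU call was lost in 3 of 6 fits that left out a library. *Uba7* was at 4.53, 4.13 and 3.5 CPM with MC, 3.82, 2.84 and 3.46 with miR-125b and 1.02, 0.576 and 0.68 with Trim AG. Its miR-125b libraries overlapped those with MC, while the Trim AG libraries lay below both, at -2.35 ± 0.25 against MC (edgeR's quasi-likelihood test, adjusted p = 6.35e-05). *Uba7* was also called lower than MC with Plus A and Trim A. Over the alternative fits these log2 fold changes ran from -0.92 to -0.71 and from -1.08 to -0.89. *Usp18* passed with Trim AG alone, at -1.47 ± 0.27.

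PARP9 and DTX3L form a complex that takes part in interferon signalling. *Dtx3l* was at 15.7, 16.7 and 17.1 CPM with MC, 8.28, 8 and 8.75 with miR-125b and 8.99, 6.17 and 6.67 with Plus A. It was at 7.86, 6.24 and 7.25 CPM with Trim A, 3.49, 3.43 and 3.56 with Trim AG and 5.57, 1.91 and 3.76 with Trim AGU. Every MC library was above every library of the other mimics. The log2 fold change ran from -0.95 ± 0.08 with miR-125b to -2.18 ± 0.11 with Trim AG (edgeR's quasi-likelihood test, adjusted p = 2.92e-06 and 1.61e-06). *Parp9*, which lies 1129 bases from *Dtx3l* on chromosome 11 and on the other strand, fell with all 5 mimics by 0.76 to 1.57 on the log2 scale. *Parp14*, another ADP-ribosyltransferase gene of chromosome 11, fell by 0.94 to 1.8.

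*Ifitm3* was at 67.8, 60.6 and 60.9 CPM with MC, 39, 38.1 and 36 with miR-125b, 27.2, 29.3 and 27 with Plus A and 14, 16.7 and 19.4 with Trim AG. These groups did not overlap, and MC stood highest and Trim AG lowest. Against MC the log2 fold changes were -0.71 ± 0.06, -1.16 ± 0.06 and -1.85 ± 0.12 (edgeR's quasi-likelihood test, adjusted p = 1.19e-06, 3.09e-07 and 5.63e-06). With Trim AGU the libraries were at 23.3, 46.9 and 31 CPM, the second being the one that stood apart, and the difference from MC did not pass. *Ifitm2*, a close relative, was not called in any comparison and had group means between 117 and 176 CPM. Reads may be shared between *Ifitm* genes.

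*Isg20*, which codes for an exonuclease that degrades single-stranded RNA, went the other way. It was at 13.8, 14.6 and 13.7 CPM with MC, 53.7, 47.3 and 46.9 with miR-125b and 48.1, 46.2 and 48 with Plus A. It was at 46.4, 47.6 and 49.2 CPM with Trim A, 39.9, 36.6 and 38.4 with Trim AG and 32.3, 61.3 and 27.6 with Trim AGU. Every library of these 5 mimics was above all 3 with MC. The log2 fold change was 1.85 ± 0.07 with miR-125b, 1.51 ± 0.07 with Trim AG and 1.7 ± 0.35 with Trim AGU (edgeR's quasi-likelihood test, adjusted p = 3.62e-09, 1.55e-06 and 0.0134). Without the second Trim AGU library the last was 1.18. *Isg20* lies on chromosome 1 of the tables, from 140601791 to 140608946 on the plus strand.

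**Figure D2:**
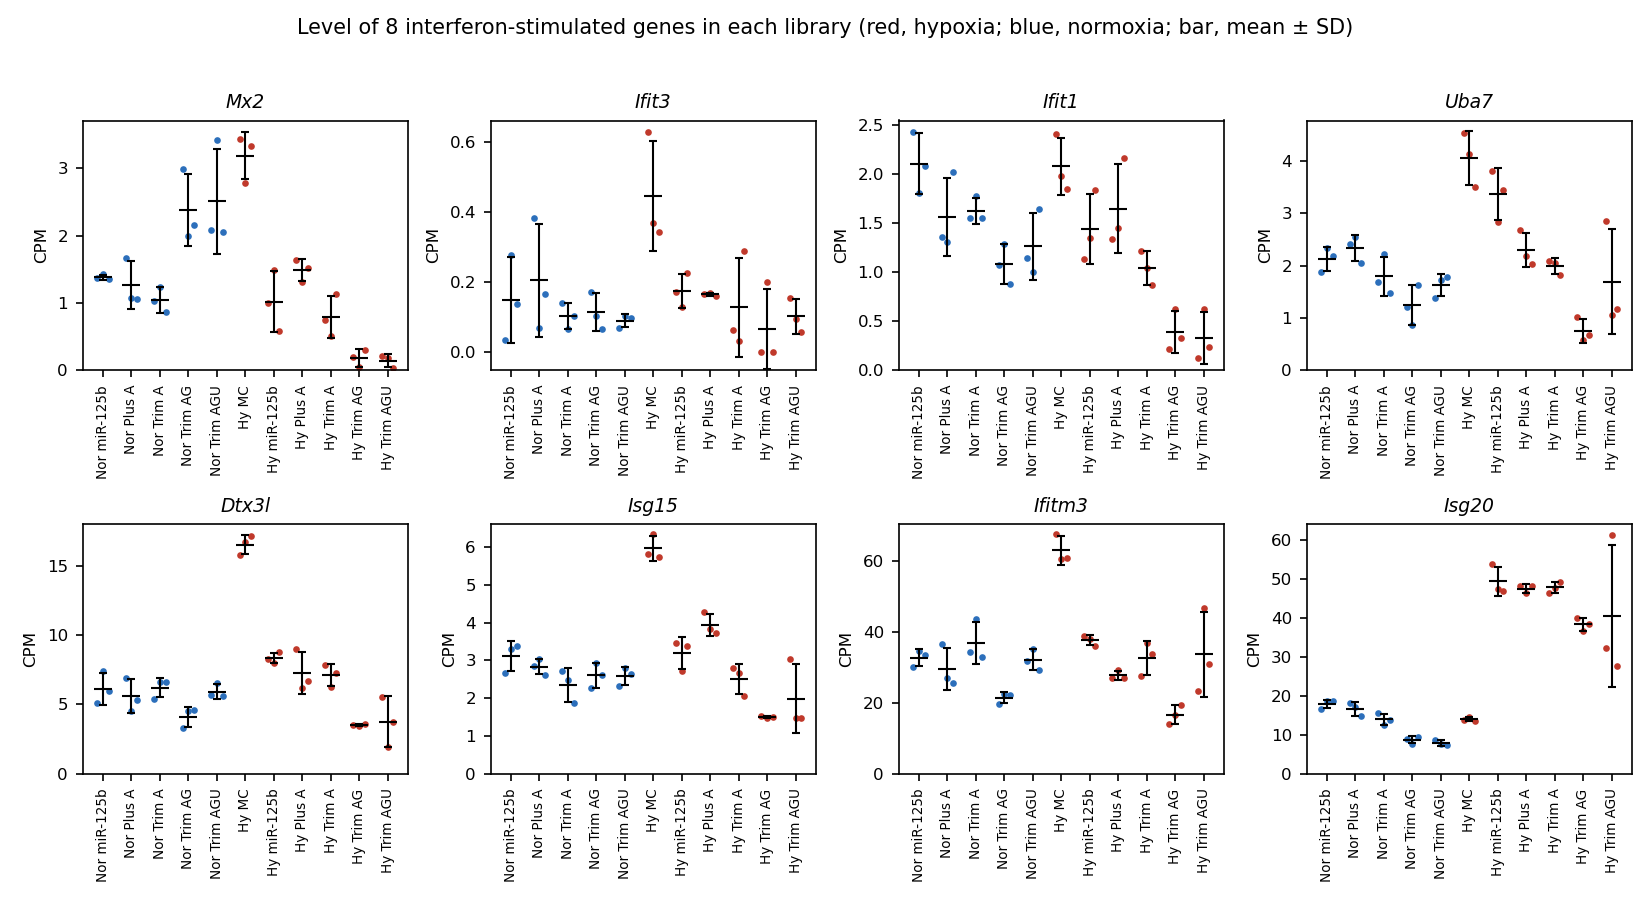
The points give CPM (y axis) of 8 genes in each of the 33 libraries, by group of oxygen (Nor, normoxia in blue; Hy, hypoxia in red) and mimic, with the mean and SD of 3 libraries as black bars. Hypoxic MC libraries stand above the other hypoxic libraries for *Mx2*, *Dtx3l* and *Isg15* and below them for *Isg20*.

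Transcription factors of the response and RNA sensors were also among the genes called. *Stat2*, which codes for a subunit of the interferon complex, was at 70.2, 72.3 and 76.4 CPM with MC and between 35.7 and 46.6 in the other 15 hypoxic libraries, without overlap. Its log2 fold change lay between -0.86 and -0.63. *Irf9*, which codes for another subunit, was called with Trim AGU alone, at -0.65 ± 0.13, or -0.67 without its second library, and lost in 4 of 6 fits that left out a library. *Irf7*, a factor that drives interferon genes, was called lower with Trim A, Trim AG and Trim AGU, at -0.76, -1.27 and -0.87, the last -1.04 without its second library and lost in 4 of 6 such fits. *Irf1* was called lower with Plus A, Trim AG and Trim AGU, at -0.65, -1.48 and -0.81, the last -0.90 without its second library and lost in 1 of 6. Among the sensors of double-stranded RNA, *Ifih1* fell with all 5 mimics by 0.60 to 1.45. *Ddx58*, which codes for RIG-I, was called with Trim AG and Trim AGU, at -1.22 and -0.86, the last -0.69 without its second library and lost in 5 of 6 and without the filter on low counts. *Eif2ak2*, which codes for the RNA-activated kinase PKR, was called with Trim AG alone, at -0.78 ± 0.10.

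Of the remaining members, *Ifi35* was called lower with Plus A, Trim A and Trim AG, at -1.06, -0.74 and -1.81. *Ifi44* was called with Trim AG and Trim AGU, at -1.27 and -0.72, the last -0.86 without its second library and lost in 5 of 6 fits that left out a library. *Gbp2* was called with Trim AG, at -0.88. *Ifitm1* was at 0.661, 0.605 and 0.824 CPM with MC and at most 0.348 CPM in the other hypoxic libraries. Its high level with MC is what brought it into the test. *Rtp4*, which codes for a receptor-transporting protein, was at 2.61, 1.61 and 1.72 CPM with MC, 3.23, 3.39 and 3.84 with miR-125b and 0.726, 1.18 and 1.08 with Trim AG, on either side of MC. *Adar*, *Sp100*, *Tlr3*, *Ifitm2* and *Oasl* were tested and not called in any of the 18 pairs of groups. *Trim21*, *Trim25*, *Ifi27*, *Dhx58* and *Ifit2* were not called against MC.

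Levels of cell type markers are given beside these results. *Myog*, a factor of muscle differentiation, was at 354, 359 and 342 CPM with MC and between 10.4 and 64.7 CPM in the other hypoxic libraries, lowest with Trim AG. *Myod1* was at 61.47 to 66.45 CPM with MC against 17.06 to 46.28, and *Mef2c* at 47.31 to 51.31 against 15.25 to 31.85. *Cdh15* was higher with Plus A, at 425.1 to 434.4 CPM, than with MC, at 403.7 to 423.4. *Vim*, most of the sum of these markers, overlapped at 3670 to 3790 CPM against 2681 to 4624, as did *Des* and *Cdh2*. Of the 8 myoblast markers, 7 had a count with MC in hypoxia, where they summed to 4531 to 4683 CPM against 2969 to 4896 in the other hypoxic libraries. The 6 immune cell markers summed to 3.09 to 4.30 CPM there against 2.03 to 3.95, and the 4 cardiomyocyte markers to 4.02 to 5.04 CPM against 1.52 to 3.72. *Myog*, *Myod1*, *Mef2c* and the cardiomyocyte sum did not overlap between MC and the rest. The part of these levels in the results against MC was not tested.

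Of 64 further genes of the pathway found in the tables, 49 were tested against MC with every mimic. Of these 22, or 44.9%, were called lower with at least 1 mimic and 8, or 16.3%, with all 5, against 28.4% and 6.22% of all genes. At least 1 mimic gave a higher call in 7 of them, or 14.3%, against 23.9% of all genes. Of 11 interferon genes searched 3 were found, and *Ifne* was the 1 tested. The 6 receptor genes gave no call with miR-125b, and 1 lower and 1 higher with Trim AG. Of the 13 signalling genes, 4 were lower and 2 higher with miR-125b, and 6 were lower with Trim AG. Of all genes, 12.5% were lower and 9.43% higher with miR-125b, and 20.2% lower and 17.0% higher with Trim AG. The further pathway genes lower with all 5 mimics, looked up after their values were seen, included *Igtp*, *Ikbke*, *Irf5*, *Lgals3bp*, *Socs3*, *Stat3* and *Zbp1*.

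*Lgals3bp*, which codes for a secreted glycoprotein, was at 120.2, 122 and 118 CPM with MC, 64, 54.6 and 56.1 with miR-125b and 30.02, 15.1 and 19.3 with Trim AG, without overlap. *Stat3*, a STAT of cytokine signalling, was at 187, 179.7 and 190 CPM with MC and 57.7, 44.3 and 53.2 with Trim AG. *Ikbke*, which codes for a kinase that activates interferon regulatory factors, was at 36.9, 38.7 and 40.1 CPM with MC and 11.6, 8.34 and 8.84 with Trim AG. All Trim AG libraries were below all MC libraries for these genes, at log2 fold changes of -2.43, -1.78 and -1.95. *Irf5* fell by 1.8 and *Psmb9*, an immunoproteasome subunit, by 1.65 with Trim AG. *Irf8* was called with Plus A alone, at -1.81 ± 0.32.

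**Figure D3:**
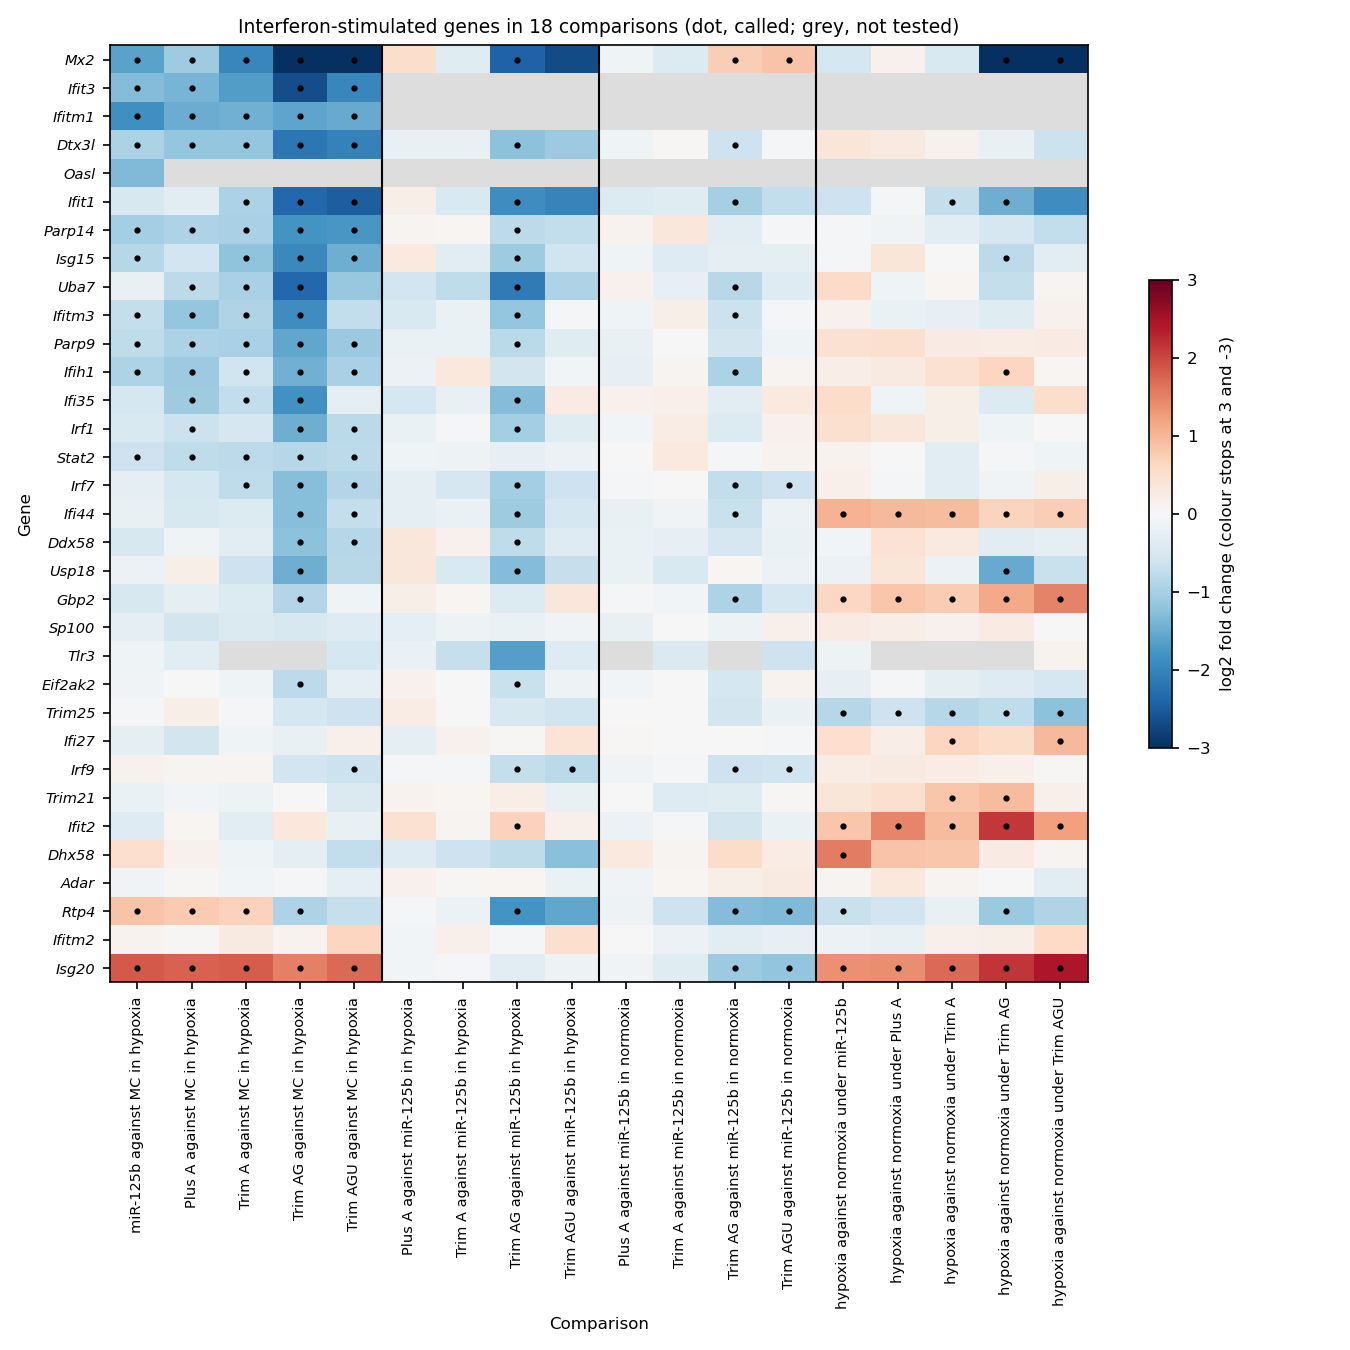
Each cell gives the log2 fold change (colour scale) of 1 of the 33 tested genes (rows) in 1 of 18 comparisons (columns), with a dot where the gene was called and grey where it was not tested. Lines part the comparisons with MC, those with miR-125b in hypoxia and in normoxia, and hypoxia against normoxia. Dots are densest for Trim AG, and *Isg20* is red in the first and the last block.

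The isomiRs, which by name differ from miR-125b at the 3′ end, were next compared with it. Depth and the trend with gene length also differed between some of these groups, and their part was not tested. In hypoxia neither Plus A nor Trim A gave a call among 30 tested members (edgeR's quasi-likelihood test). Of all genes, Plus A gave 0.707% higher and 1.32% lower, and Trim A 0.457% higher and 0.417% lower. At an unadjusted p below 0.05 there were 11 members with Plus A and 3 with Trim A, and DESeq2 called 0 and 1. The log2 fold changes lay between -0.57 and 0.53 with Plus A and between -0.75 and 0.31 with Trim A.

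Trim AG differed from miR-125b in more of these genes. It gave 17 of 30 tested members lower and 1, *Ifit2*, higher, against 11.5% lower and 7.85% higher of all genes. The median log2 fold change was -0.78, and 26 of the 30 were below 0, where 50.1% of all genes were. With Trim AGU 1 of 30 was lower and none higher, against 1.93% lower and 1.83% higher of all genes. The median was -0.38 and 25 of 30 were below 0, where 51.8% of all genes were. Without the second Trim AGU library 10 were lower, and DESeq2 called 6 with all libraries. The shares of all genes in those fits are not given here.

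*Uba7*, at the library values given above, differed from miR-125b by -2.13 ± 0.25 on the log2 scale with Trim AG (edgeR's quasi-likelihood test, adjusted p = 0.000404). *Rtp4* differed by -1.79 ± 0.23 (edgeR's quasi-likelihood test, adjusted p = 0.000586). *Usp18* was at 1.31, 1.32 and 1.03 CPM with miR-125b and 0.581, 0.451 and 0.422 with Trim AG, at -1.31 ± 0.27 (edgeR's quasi-likelihood test, adjusted p = 0.00539). Every Trim AG library was below every miR-125b library in each of these genes. *Ifi35*, an interferon-induced leucine zipper protein, was at 8.7, 6.42 and 6.68 CPM against 1.67, 3.68 and 3.42, also apart, at -1.29 ± 0.29. *Mx2* at -2.43 ± 0.56, *Ifit1* at -1.86 ± 0.40, *Dtx3l* at -1.24 ± 0.12 and *Ifitm3* at -1.16 ± 0.12 were without overlap too.

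The other genes called lower with Trim AG were *Isg15*, *Ifi44*, *Irf1*, *Irf7*, *Parp9*, *Parp14*, *Ddx58*, *Irf9* and *Eif2ak2*, by 0.68 to 1.07 on the log2 scale. The gene called with Trim AGU was *Irf9*, at 27.3, 24 and 25.4 CPM with miR-125b and 15.6, 12.9 and 12.8 with Trim AGU, -0.80 ± 0.13 on the log2 scale (edgeR's quasi-likelihood test, adjusted p = 0.0257). That call was lost in 4 of 6 fits that left out a library, and the value was -0.82 without the second Trim AGU library. *Mx2* and *Ifit1* with Trim AGU, at -2.69 ± 0.67 and -2.0 ± 0.60, did not pass, and without that library both passed, at -2.99 and -2.93. *Myog* was at 64.7, 63.9 and 63.1 CPM with miR-125b and 11.8, 10.4 and 11.6 with Trim AG. *Myod1*, *Mef2c*, *Cdh15* and *Vim* were also lower with Trim AG without overlap, while *Des* and *Cdh2* overlapped. The part of these markers in these results was not tested.

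Of the further pathway genes, 11 of 52 tested were lower and 3 higher with Trim AG, where 11.5% of all genes were lower and 7.85% higher. With Plus A 3 of 50 were lower, with Trim A 1 of 51 was lower, and with Trim AGU 1 of 50 was higher, against the shares of all genes given above. *Psmb9* was at 3.02, 2.39 and 2.29 CPM with miR-125b and 0.75, 1.1 and 0.562 with Trim AG, at -1.65. *Socs1*, which codes for an inhibitor of JAK kinases, was at 3.82, 3.65 and 4.23 CPM against 1.99, 1.93 and 1.85, at -1.0. The groups were apart for both. *Lgals3bp* fell by 1.43 and *Ikbke* by 0.98 with Trim AG, and *Irf8* by 1.38 with Plus A. *Lgals9*, a galectin, rose by 0.95 with Trim AG.

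In normoxia, Plus A and Trim A again gave no call, of 29 and 30 tested members (edgeR's quasi-likelihood test), where all genes gave 0.0% higher and 0.0% lower with Plus A and 0.367% higher and 0.0475% lower with Trim A. DESeq2 also called 0 members with either, and 0 with Plus A and 5 with Trim A were at an unadjusted p below 0.05. For these measures the shares of all genes are not given here. The log2 fold changes lay between -0.42 and 0.28 with Plus A and between -0.62 and 0.35 with Trim A. Both counts stayed at 0 without the libraries whose *Cav1* level went against their labels.

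Trim AG gave 11 lower and 1 higher of 29 tested members in normoxia, against 6.36% lower and 7.58% higher of all genes. Trim AGU gave 4 lower and 1 higher of 30, against 5.16% lower and 6.22% higher. Without the first miR-125b library the counts were 13 lower and 1 higher with Trim AG, and 4 lower and none higher with Trim AGU. The median log2 fold changes were -0.52 and -0.15.

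*Isg20* was at 16.7, 18.6 and 18.6 CPM with miR-125b in normoxia, 9.03, 7.7 and 9.39 with Trim AG and 8.66, 7.62 and 7.37 with Trim AGU. *Rtp4* was at 6.34, 4.38 and 5 CPM with miR-125b, 2.15, 2.2 and 2.19 with Trim AG and 2.6, 2 and 1.75 with Trim AGU. For both genes every library of these isomiRs was below every library of miR-125b. The log2 fold change of *Isg20* was -1.09 ± 0.10 with Trim AG and -1.19 ± 0.12 with Trim AGU (edgeR's quasi-likelihood test, adjusted p = 6.98e-05 and 0.000254). That of *Rtp4* was -1.31 ± 0.18 and -1.31 ± 0.22 (edgeR's quasi-likelihood test, adjusted p = 0.000474 and 0.00284). Without the first miR-125b library they were -1.13 and -1.24 for *Isg20* and -1.15 and -1.16 for *Rtp4*, all of them called.

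*Gbp2* was at 39.9, 35.5 and 36.5 CPM with miR-125b and 17.9, 22.3 and 20.7 with Trim AG, -0.92 ± 0.09 on the log2 scale (edgeR's quasi-likelihood test, adjusted p = 8.67e-05). *Ifih1* was at 1.75, 1.74 and 2.36 CPM against 0.973, 0.976 and 1.15, at -0.96 ± 0.22 (edgeR's quasi-likelihood test, adjusted p = 0.00708). *Irf7* was at 16, 18 and 16.7 CPM against 10.4, 10.8 and 10.3, at -0.73 ± 0.09 (edgeR's quasi-likelihood test, adjusted p = 0.000252). None of the 3 overlapped between the groups, which the choice of these genes required. *Ifit1*, at 2.43, 1.81 and 2.08 CPM against 1.08, 1.29 and 0.884, was also apart, at -1.0 ± 0.23. *Uba7*, at 1.88, 2.33 and 2.19 CPM against 1.22, 0.871 and 1.64, was apart at -0.82 ± 0.25, a call lost in 4 of 6 fits that left out a library. Without the first miR-125b library the values were -0.87 for *Gbp2*, -1.03 for *Ifih1*, -0.77 for *Irf7*, -0.89 for *Ifit1* and -0.90 for *Uba7*. *Dtx3l*, *Ifitm3*, *Ifi44* and *Irf9* were the others lower with Trim AG, the first a call lost in 3 of 6 such fits, and *Irf7* and *Irf9* the others lower with Trim AGU.

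*Mx2* was called higher with these isomiRs in normoxia. It was at 1.37, 1.43 and 1.35 CPM with miR-125b, 2.99, 1.99 and 2.16 with Trim AG and 2.08, 3.41 and 2.05 with Trim AGU, without overlap. The log2 fold changes were 0.73 ± 0.21 and 0.85 ± 0.25 (edgeR's quasi-likelihood test, adjusted p = 0.0216 and 0.0365). With all libraries in a single fit neither passed, and without the first miR-125b library the values were 0.73 and 0.84, the second of them not called. Of 6 fits that each left out a library, 4 lost the call with Trim AGU and 2 that with Trim AG.

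Of the further pathway genes in normoxia, 10 of 51 tested were lower and 3 higher with Trim AG, where 6.36% of all genes were lower and 7.58% higher. With Trim AGU 4 of 49 were lower and 5 higher, near the 5.16% and 6.22% of all genes. *Ifi27l2b*, a relative of *Ifi27*, was at 102, 83.1 and 98.4 CPM with miR-125b and 50.4, 23.6 and 42.5 with Trim AGU, -1.29 on the log2 scale. *Mb21d1*, which codes for the DNA sensor cGAS, was at 3.77, 4.18 and 4.48 CPM against 8.52, 6.96 and 6.74, at 0.83. Without the first miR-125b library these were -1.23 and 0.77. The first fell and the second rose without overlap. With Trim AG *Psmb9* fell by 1.22, *Irf5* by 0.95 and *Tap1*, a peptide transporter, by 0.86.

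Hypoxia was compared with normoxia within each of 5 mimics, and the changes went both ways. Under miR-125b 5 of 30 tested members were higher and 2 lower in hypoxia, against 9.34% higher and 11.5% lower of all genes. Under Plus A 4 were higher and 1 lower of 29, against 10.0% and 12.8% of all genes. Under Trim A 6 were higher and 2 lower of 29, against 12.0% and 14.5%.

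Under Trim AG 6 were higher and 6 lower of 29, against 15.0% and 17.8% of all genes, and under Trim AGU 5 and 2 of 30, against 13.6% and 13.4%. Without the normoxic libraries in doubt the counts were 5 higher and 1 lower under miR-125b, and the same under Plus A. Under Trim AGU they were 4 higher and 4 lower without its second hypoxic library.

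*Gbp2*, *Ifi44*, *Ifit2* and *Isg20* were called higher under all 5 mimics, and *Trim25* lower under all 5, which makes 4 and 1 of 29, where 3.23% of all genes were higher and 6.63% lower under all 5. The call of *Ifi44* under Trim AGU was lost in 5 of 6 fits that left out a library and without the filter on low counts. *Ifit2* was at 5.38, 7.97 and 6.64 CPM in normoxia and 12.8, 12.5 and 12.6 in hypoxia with miR-125b, and at 4.45, 4.92 and 4.71 against 18.5, 22.6 and 19.5 with Trim AG. The groups were apart, and the log2 fold change was 0.84 ± 0.14 under miR-125b and 2.11 ± 0.13 under Trim AG (edgeR's quasi-likelihood test, adjusted p = 0.000894 and 2.86e-06), the first 0.71 without the first normoxic library.

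*Isg20* was higher in every hypoxic library than in every normoxic library of the same mimic. The log2 fold change was 1.38 ± 0.07 under miR-125b, 2.14 ± 0.10 under Trim AG and 2.43 ± 0.36 under Trim AGU (edgeR's quasi-likelihood test, adjusted p = 9.69e-07, 8.99e-07 and 0.00316). Without the libraries in doubt the values under miR-125b and Trim AGU were 1.33 and 1.9. MC in hypoxia, at 13.7 to 14.6 CPM, was within the normoxic range of the other mimics, 7.37 to 18.6 CPM.

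*Gbp2* rose by 0.61 under miR-125b and by 1.48 under Trim AGU, from 22.8, 30.8 and 25.2 CPM to 59.4, 81.7 and 70.8. Without the libraries in doubt these were 0.67 and 1.29. *Ifi44* rose by 0.66 to 1.04, and under Trim AGU its value without the second hypoxic library was 0.58, which did not pass. *Trim25*, which codes for a ubiquitin ligase that activates RIG-I, fell by 0.61 to 1.22. It was at 11.3, 16 and 14.9 CPM in normoxia and 8.07, 2.35 and 7.55 in hypoxia with Trim AGU, the lowest value being that of the library that stood apart, and without that library the value was -0.88. The call under Trim AGU was lost in 4 of 6 fits that left out a library. *Dhx58*, an RNA helicase gene, passed under miR-125b alone, at 0.308, 0.522 and 0.347 CPM against 1.2, 1.16 and 1.26, 1.53 ± 0.29 on the log2 scale (edgeR's quasi-likelihood test, adjusted p = 0.00189), or 1.38 without the first normoxic library.

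*Mx2* had hypoxic libraries far below the normoxic ones with Trim AG and Trim AGU, without overlap. The log2 fold changes were -3.66 ± 0.44 and -4.04 ± 0.58 (edgeR's quasi-likelihood test, adjusted p = 0.00014 and 0.00294), the second -4.35 without the library in doubt. With miR-125b, Trim A and Plus A they were -0.52 ± 0.32, -0.47 ± 0.34 and 0.13 ± 0.26, which did not pass.

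*Usp18* was at 1.29, 1.32 and 1.57 CPM in normoxia and 0.581, 0.451 and 0.422 in hypoxia with Trim AG, at -1.51 ± 0.26 (edgeR's quasi-likelihood test, adjusted p = 0.0011). *Ifit1* was at 1.08, 1.29 and 0.884 CPM against 0.218, 0.626 and 0.328, at -1.46 ± 0.40 (edgeR's quasi-likelihood test, adjusted p = 0.0126). Both were apart between the groups. *Ifit1* was also lower under Trim A, at -0.72 ± 0.23, a call lost with DESeq2 and in 5 of 6 fits that left out a library. *Rtp4* was lower under miR-125b and Trim AG, at -0.67 ± 0.18 and -1.12 ± 0.24, the first -0.51 and not called without the first normoxic library. *Isg15* was lower under Trim AG, at -0.79 ± 0.19. Of the members called higher with some mimics, *Ifi27* passed under Trim A and Trim AGU, *Trim21* under Trim A and Trim AG, and *Ifih1* under Trim AG, a call that DESeq2 did not make and that was lost in 5 of 6 fits that left out a library.

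**Figure D4:**
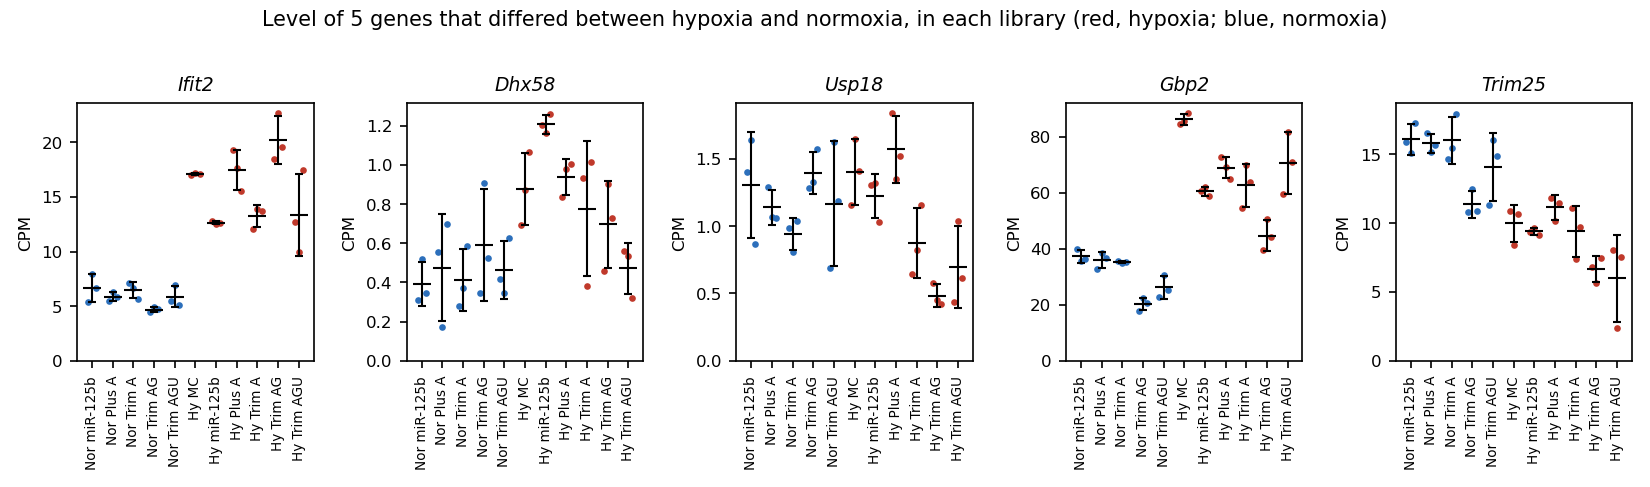
The points give CPM (y axis) of *Ifit2*, *Dhx58*, *Usp18*, *Gbp2* and *Trim25* in each of the 33 libraries (Nor, normoxia in blue; Hy, hypoxia in red), with the mean and SD of 3 libraries as black bars. Within each mimic, hypoxic libraries stand above normoxic ones for *Ifit2* and *Gbp2* and below them for *Trim25*, and the lowest *Usp18* mean is that of Trim AG in hypoxia.

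Of the 48 further pathway genes tested under every mimic, 6, or 12.5%, were lower and 3, or 6.25%, higher in hypoxia under all 5, against 6.63% and 3.23% of all genes. *Ifi27l2b* was at 50.4, 23.6 and 42.5 CPM in normoxia and 382, 488 and 514 in hypoxia with Trim AGU, 3.62 on the log2 scale, or 3.5 without the second hypoxic library. It rose without overlap between the groups. *Socs3*, an inhibitor of STAT3 signalling, fell by 0.76 to 1.71. *Mb21d1* fell by 1.08 to 1.75 and *Irf8* by 1.34 to 2.71, and *Lgals9* was lower under 4 of 5 mimics, at -1.85 under Plus A.

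Whether the oxygen effect differed between an isomiR and miR-125b was tested as the difference of their log2 fold changes. No member was called with Plus A or Trim A, of 30 and 31 tested (edgeR's quasi-likelihood test), where all genes gave 0.00642% higher and 0.0128% lower with Plus A and 0.122% higher and 0.483% lower with Trim A. At an unadjusted p below 0.05 there were 5 and 4 members, and DESeq2 called 1 and 0, and the shares of all genes by these measures are not given here. With Trim AG 2 were higher and 5 lower of 30, against 4.29% higher and 6.97% lower of all genes. With Trim AGU none was higher and 1 lower of 31, against 0.612% higher and 0.354% lower. Without the libraries in doubt Trim AG gave 2 higher and 3 lower, and Trim AGU gave 0.

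With Trim AG the difference was 1.23 ± 0.19 for *Ifit2* and 0.73 ± 0.12 for *Isg20*, so that their rise in hypoxia was larger than with miR-125b (edgeR's quasi-likelihood test, adjusted p = 0.000975 and 0.00139). *Mx2* at -3.17 ± 0.57, *Usp18* at -1.37 ± 0.37 and *Uba7* at -1.32 ± 0.36 had a lower oxygen effect than with miR-125b (edgeR's quasi-likelihood test, adjusted p = 0.00232, 0.0189 and 0.0194). So did *Isg15* at -0.78 ± 0.24 and *Irf1* at -0.64 ± 0.21 (edgeR's quasi-likelihood test, adjusted p = 0.0349 and 0.0398). *Mx2* was also lower with Trim AGU, at -3.51 ± 0.67 (edgeR's quasi-likelihood test, adjusted p = 0.0353), or -3.85 without the second hypoxic Trim AGU library and -3.54 without the normoxic ones in doubt. Without the normoxic libraries in doubt the values with Trim AG were 1.37 for *Ifit2*, 0.78 for *Isg20*, -3.17 for *Mx2*, -1.43 for *Usp18* and -1.24 for *Uba7*. Without them the calls of *Isg15* and *Irf1* with Trim AG and of *Mx2* with Trim AGU were lost, and the other 5 were kept. Of 12 fits that each left out a library, 10 lost *Irf1*, 8 lost *Isg15* and 10 lost *Mx2* with Trim AGU, and *Isg20* did not pass with all libraries in a single fit.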

How the data were processed

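Poly-A RNA was sequenced in 36 libraries of H9C2 cells, and 33 were used. From the 12 deposited tables, each for a pair of groups, 11 gave counts. The columns with the authors' own fold changes and p-values were not used. HISAT2 and StringTie are named in the submitters' processing notes, and the genome build is not given in the sources used here. The deposited counts are raw counts per gene, and the deposited FPKM values were scaled by the authors to gene length and depth. Counts were joined on the gene identifier, and a gene left out of a table was taken as 0.

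CPM was computed from the deposited counts and their totals. Each comparison was fitted on the libraries of its groups with edgeR 4.0.16 in R 4.3.3 (filterByExpr, TMM, glmQLFit and glmQLFTest), the difference of oxygen effects as an interaction. p-values were adjusted by Benjamini-Hochberg over all tested genes, and a call needed an adjusted p below 0.05 and a change of at least 1.5-fold. The code was tested on simulated data. The alternatives were DESeq2 1.42.0, a replicate block, a fit of all libraries together, fits of unfiltered genes, fits without single libraries or without both libraries in doubt, and TMM-scaled library sizes for CPM. Standard errors (SE) were derived from the log2 fold change and its F statistic.

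Members named with library values were the up to 8 in each kind of comparison with the largest change among those called without overlap. *Stat2*, *Ifitm1* and *Irf9* are given with library values outside this rule. Further pathway genes were the up to 6 called with the largest change and at least 1 CPM on average. Some pathway genes that this rule names are not reported here. Every member called for the difference of oxygen effects was named. The members and all lists were chosen with earlier results of these data known. Every pair of libraries of a group differed beyond counting noise (chi-square per gene, 4.75 to 218.9). It was 96.0 between the first and second libraries of Hypoxia Trim AG and 73.81 between those of Hypoxia Trim A. The short-gene median less the long-gene median was 0.84 in the second Hypoxia Trim AGU library and -0.68 in the first. It was -0.53 in the first of Hypoxia Trim A and -0.36 and 0.33 in the first and second of Hypoxia Trim AG.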

Additional observations from a re-analysis of the deposited data

Results flagged for a closer look

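In 8 results the effect of hypoxia differed from that under miR-125b by a test of the difference itself (edgeR's quasi-likelihood test). Under Trim AG the difference on the log2 scale was -3.17 for *Mx2*, -1.37 for *Usp18*, -1.32 for *Uba7*, -0.78 for *Isg15*, -0.64 for *Irf1*, 1.23 for *Ifit2* and 0.73 for *Isg20*. Under Trim AGU it was -3.51 for *Mx2*. Over 17 alternatives the adjusted p of *Mx2* ranged from 1.31e-06 to 0.00846 under Trim AG and from 4.58e-05 to 0.111 under Trim AGU (edgeR's quasi-likelihood test or DESeq2).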

How the results depend on the processing

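No result changed direction. Counts in this section are of members only, and the shares of all genes under these settings are not given here. DESeq2 called 1 member for Trim A and 6 for Trim AGU against miR-125b in hypoxia, and 1 and 2 for the difference of oxygen effects with Plus A and Trim AGU. All libraries in 1 fit gave 10 for Trim AGU against miR-125b in hypoxia, 12 for its oxygen effect and 4 for the difference, and the fit without both libraries in doubt gave 0 for the last. With the replicate block these 3 counts were 0, 4 and 0. The labels do not say whether same-numbered libraries were handled together. Correlations of their deviations ranged from -0.269 to 0.146, and with 3 libraries per group they cannot settle it.

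Without 1 library, counts against MC were 11 to 12 for miR-125b, 21 to 23 for Trim AG, 4 to 20 for Trim AGU, 14 to 17 for Plus A and 12 to 14 for Trim A. Against miR-125b in hypoxia they were 17 to 20 for Trim AG, 0 to 10 for Trim AGU, 0 to 1 for Plus A and 0 to 2 for Trim A, and in normoxia 9 to 15, 2 to 6, 0 and 0 in that order. For hypoxia against normoxia they were 6 to 9 under miR-125b and 10 to 14, 3 to 8, 4 to 6 and 6 to 8 under the isomiRs in that order, and for the difference of oxygen effects 4 to 8, 0 to 7, 0 and 0 to 1.

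Single libraries moved the counts most for Trim AGU. Against miR-125b in hypoxia it was 3 without the first Trim AGU library and 0 without the third or any miR-125b library, and in normoxia 2 without the second miR-125b library. Its oxygen effect gave 4 without the second normoxic library and 3 without the third, and the difference 7 and 3 without the first and second hypoxic library and 0 without any other. Without the third normoxic library the difference gave 4 for Trim AG. Without the first hypoxic library of the isomiR, Trim A gave 2 against miR-125b in hypoxia and 1 for the difference, and Plus A gave 1 against miR-125b without its replicate 1 or 3. Of 162 calls of single genes, 4 were lost with DESeq2, 7 with all libraries in 1 fit, 7 with no filter and 15 with the block, and the cause was not tested. TMM-scaled library sizes moved 8 of 187 levels by more than 1 SD.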
